A study of Rattus norvegicus with 10 samples.

Results

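The subunits of the AMPA and NMDA receptors, the ion channels that carry most fast excitatory signals in the brain, were measured in 5 regions of the rat brain. All 9 genes sought (Gria1, Gria2, Gria3, Gria4, Grin1, Grin2a, Grin2b, Grin2c and Grin2d) were on the array. They are 9 of the 4736 genes that the array names and hold 21 of its 8740 probe sets, taken as every probe set annotated to 1 of these symbols alone. Each probe set is a group of short oligonucleotides that reads out 1 transcript or a few related ones. The regions were the amygdala, the caudate putamen, the nucleus accumbens, the prefrontal cortex and the ventral tegmental area, and each had 1 array from saline-treated control rats and 1 from cocaine-treated rats. The sources used here give no strain, sex, age, dose, route or schedule, and no number of animals behind an array. Values are the deposited expression index of dChip on a linear scale, and no level of a probe set is set against that of another, because their affinities differ.

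AMPA receptors are tetramers of the GluA subunits encoded by Gria1 to Gria4. GluA2, the Gria2 product, makes the channel nearly impermeable to calcium, because its messenger RNA is edited at the pore. NMDA receptors need GluN1, encoded by Grin1, joined to GluN2 subunits encoded by Grin2a to Grin2d, which set the channel's kinetics and its sensitivity to magnesium. Cocaine blocks dopamine reuptake, and the excitatory synapses of dopamine neurons in the ventral tegmental area and of their target areas have been studied widely as sites of change after the drug.

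The arrays' medians over the 8740 probe sets lay between 2208 and 2310. The r between the saline and the cocaine array was highest for the caudate putamen, 0.992, and lowest for the amygdala, 0.940. Exact zeros numbered 226 on the prefrontal cocaine array, 120 on the ventral tegmental cocaine array and 91 on the amygdala saline array. The others had 8 to 42. Th and Drd1 followed the region labels, but not every marker did. Th, the enzyme that limits dopamine synthesis, stood at 6363 and 7544 in the ventral tegmental area and at 2599 to 2884 elsewhere. The dopamine receptor gene Drd1 stood at 8166 to 11001 in the striatal regions and at no more than 3228 elsewhere. The dopamine neuron marker Slc6a3 read 3268 (saline) and 4552 (cocaine) in the ventral tegmental area and up to 3756 elsewhere. Pdyn, listed as a striatal marker, lay between 8489 and 10191 over all regions. Ttr, a choroid plexus marker, read 41154 and 29441 in the amygdala and 34312 and 11221 in the caudate putamen, and at most 4431 elsewhere. Of the 21 member probe sets, 16 had a mean index above 1824, the limit for testing, and every gene kept at least 1 of them. The 5 below it belonged to Gria3, Gria4 (2 of its 3), Grin1 and Grin2a.

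Gria2 was the member gene whose level differed between regions: it was lower in the ventral tegmental area on both of its probe sets. On the probe set M36419_s_at the ventral tegmental area read 4774 on its saline array and 4109 on its cocaine array. The prefrontal arrays read 6351 and 5815, the amygdala arrays 6959 and 7028, the arrays of the caudate putamen 7767 and 6768, and those of the accumbens 7741 and 7439, saline first in each. Both arrays of the ventral tegmental area thus lay below all 8 others, and the prefrontal arrays came next. The ventral tegmental mean of 4441 ± 470 (SD, n = 2) was 1.57-fold below the other 4 regions, a log2 difference of -0.65 ± 0.08 (SE, limma adjusted p = 0.00174). Each SD of a region is taken over its saline and its cocaine array and so includes any difference between them.

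The other Gria2 probe set, M38061_at, gave the same picture with a larger difference. The ventral tegmental area read 3317 (saline) and 2329 (cocaine), and the other 8 arrays ran from 3785 on the prefrontal cocaine array to 5969 on the accumbens saline array. Here too the ventral tegmental arrays were the lowest of the 10 and did not overlap the rest. Their mean of 2823 ± 699 (SD, n = 2) was 1.81-fold below the other regions, a log2 difference of -0.86 ± 0.13 (SE, limma adjusted p = 0.00453). Across the 10 arrays both probe sets moved together, with r = 0.954. In bulk tissue, fewer cells of a type and less RNA per cell cannot be told apart.

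Of the 16 tested members, these 2 were called in the ventral tegmental area, both lower. Of the 5232 probe sets that could be compared over all regions, 11.1% were called there, and 3.23% were called lower. Both calls held without any single forebrain array and without the saline array of the region, and both were lost without the cocaine array of the ventral tegmental area, at log2 differences of -0.59 and -0.67 (limma adjusted p = 0.0573 and 0.111). The F test for any difference among the regions, in limma, called the same Gria2 probe sets (adjusted p = 0.00969 and 0.0251) and no other member, against 9.21% of all probe sets. That count was 0 without either array of the caudate putamen or of the ventral tegmental area or without the accumbens cocaine array, 1 without the accumbens saline array, and 3 without either amygdala array. The labels do not say whether the samples come from separate animals. The spread behind these p-values is that of the difference between cocaine and saline arrays from region to region. It includes any cocaine effect particular to a region and may be technical in part.

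**Figure D1:**
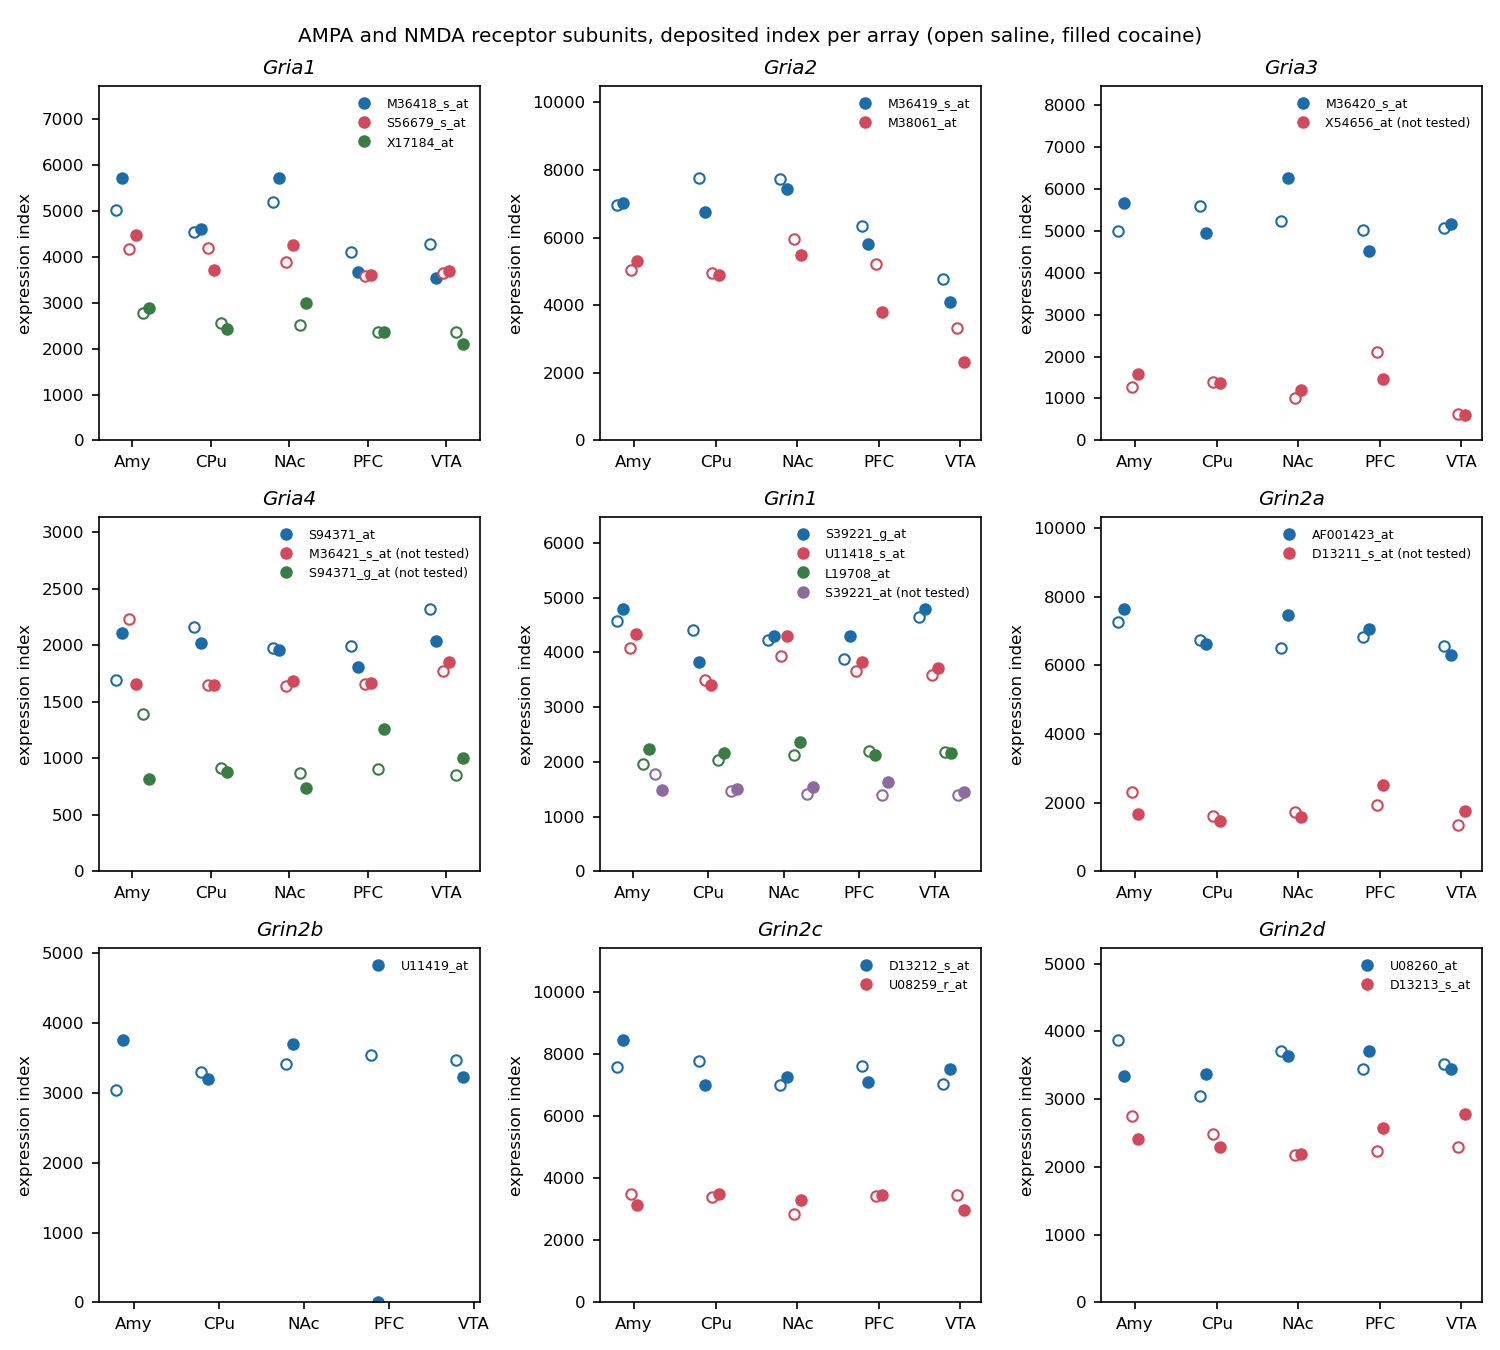
Deposited expression index (y axis, linear from 0) of all 21 member probe sets on each array, by region (Amy amygdala, CPu caudate putamen, NAc nucleus accumbens, PFC prefrontal cortex, VTA ventral tegmental area), with saline open and cocaine filled. Both Gria2 probe sets are lowest in the ventral tegmental area, at 4774 and 4109 and at 3317 and 2329, while most other members lie level across the regions; the point at 0 is Grin2b on the prefrontal cocaine array.

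Among the forebrain regions Gria2 was highest in the nucleus accumbens on both probe sets, at 7590 ± 214 and 5722 ± 349 (SD, n = 2). On M36419_s_at the order ran on through the caudate putamen and the amygdala to the prefrontal cortex, and the arrays of the caudate putamen overlapped those of both its neighbours. On M38061_at the accumbens arrays lay above all others, followed by the amygdala, the caudate putamen and the prefrontal cortex, with overlap between the last 2. The accumbens excess over the mean of the other 4 regions was 0.32 ± 0.08 and 0.44 ± 0.13 log2 units (SE) and did not pass the test (limma adjusted p = 0.301 and 0.460).

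Gria1, whose product GluA1 is the partner of GluA2 in many forebrain receptors, had its lowest levels in the prefrontal cortex and the ventral tegmental area on all 3 of its probe sets. On M36418_s_at the saline and cocaine arrays of the prefrontal cortex read 4110 and 3662, of the ventral tegmental area 4278 and 3550, of the caudate putamen 4536 and 4610, of the amygdala 5027 and 5722 and of the accumbens 5200 and 5717. The arrays of the prefrontal cortex and ventral tegmental area overlapped each other and lay below the rest, and those of the amygdala and accumbens overlapped above. None of these differences passed: the log2 difference was -0.29 ± 0.10 (SE) in the ventral tegmental area and -0.30 ± 0.10 in the prefrontal cortex (limma adjusted p = 0.139 and 0.177). Without the amygdala saline array alone both did, with limma adjusted p = 0.0447 and 0.0481. The 3 Gria1 probe sets agreed across the 10 arrays, with r between 0.808 and 0.912.

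Gria3, which encodes GluA3, was level on its tested probe set M36420_s_at, between 4522 on the prefrontal cocaine array and 6259 on the accumbens cocaine array, with a median of 5108. In the ventral tegmental area it stood at 5067 and 5149, within the range of the other regions, and its log2 difference of -0.04 had a 95% interval from -0.28 to 0.20. A dimmer Gria3 probe set, X54656_at, fell below the limit for testing. Its ventral tegmental arrays read 631 (saline) and 598 (cocaine), against 1013 to 2098 on the others. Both ventral tegmental values lay under the floor of 1028, to which low values were raised, and with all probe sets tested the difference did not pass (limma adjusted p = 0.297). Raising them to the floor removed part of the gap before the fit, so this test cannot decide whether the probe set is lower there.

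Gria4, which encodes GluA4, a subunit of fast receptors on some interneurons, had 1 tested probe set, S94371_at, between 1690 and 2320. Its highest mean, 2180, was that of the ventral tegmental area, and its arrays there, at 2320 and 2040, overlapped those of the caudate putamen. The log2 difference of 0.15 had a 95% interval from -0.11 to 0.41. Across arrays it ran against the other Gria4 probe sets, with r of -0.821 and -0.513, while those, both under the limit for testing, correlated with each other at r = 0.718.

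The NMDA receptor genes showed smaller differences between regions than Gria2. Grin1, the subunit gene that every NMDA receptor needs, stood between 3815 and 4794 on S39221_g_at, between 3399 and 4342 on U11418_s_at and between 1961 and 2362 on L19708_at. The first was highest in the ventral tegmental area, at 4651 and 4787, and the second in the amygdala, at 4083 and 4342, and in both cases arrays of other regions overlapped. The 95% intervals of the log2 difference in the ventral tegmental area ran from -0.06 to 0.34, from -0.26 to 0.08 and from -0.18 to 0.22, so no interval held a decrease as large as that of Gria2.

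Grin2a, whose product is the main GluN2 subunit of mature forebrain receptors, ran from 6317 on the ventral tegmental cocaine array to 7648 on the amygdala cocaine array on AF001423_at. The order of means was amygdala, nucleus accumbens, prefrontal cortex, caudate putamen and ventral tegmental area, and the accumbens arrays spanned those of the prefrontal cortex and the caudate putamen. Grin2b, whose product is prominent in young and in striatal and cortical neurons, lay between 3039 and 3760 on its only probe set, with all neighbouring regions overlapping. Its value on the prefrontal cocaine array is listed at 0 against 3547 on the saline array, and it was treated as no value, so the prefrontal cortex rests on 1 array for this gene.

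Grin2c, which is best known from cerebellar granule cells, stood between 7001 and 8467 on D13212_s_at and between 2850 and 3507 on U08259_r_at. Grin2d, a subunit gene of brainstem, midbrain and interneurons, stood between 3049 and 3875 on U08260_at and between 2170 and 2778 on D13213_s_at. The ventral tegmental arrays of the second Grin2d probe set, at 2298 and 2778, spanned most of the range of the other regions. The largest size of a ventral tegmental log2 difference among the tested GluN2 probe sets was that of Grin2a on AF001423_at, -0.12 ± 0.08 (SE, limma adjusted p = 0.505). The Grin2a probe set under the limit for testing, D13211_s_at, had -0.25 ± 0.19 with all probe sets tested (limma adjusted p = 0.767). Probe sets of the same NMDA receptor gene did not track each other across arrays: r was 0.285 for Grin2a, -0.111 for Grin2c, 0.0571 for Grin2d and between -0.428 and 0.419 for Grin1.

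No member passed limma's test in the amygdala, the caudate putamen, the nucleus accumbens or the prefrontal cortex, where 0.612%, 4.09%, 0.535% and 5.01% of all probe sets did. At an unadjusted p under 0.05 stood 2, 2, 3 and 1 of the 16 members, beside 462, 822, 274 and 876 of all 5232 probe sets, so the shares for the caudate putamen and the prefrontal cortex were no larger than those of all probe sets. These were Gria1 and Grin1 probe sets in the amygdala, Gria2 and Grin1 in the caudate putamen, both Gria2 probe sets and a Gria1 probe set in the accumbens, and Gria1 in the prefrontal cortex. The fold between the highest and the lowest region had a median of 1.17 over the 16 members and 1.21 over all 5232 probe sets. The Gria2 folds of 1.71 and 2.06 exceeded those of 91.1% and 95.6% of all tested probe sets.

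**Figure D2:**
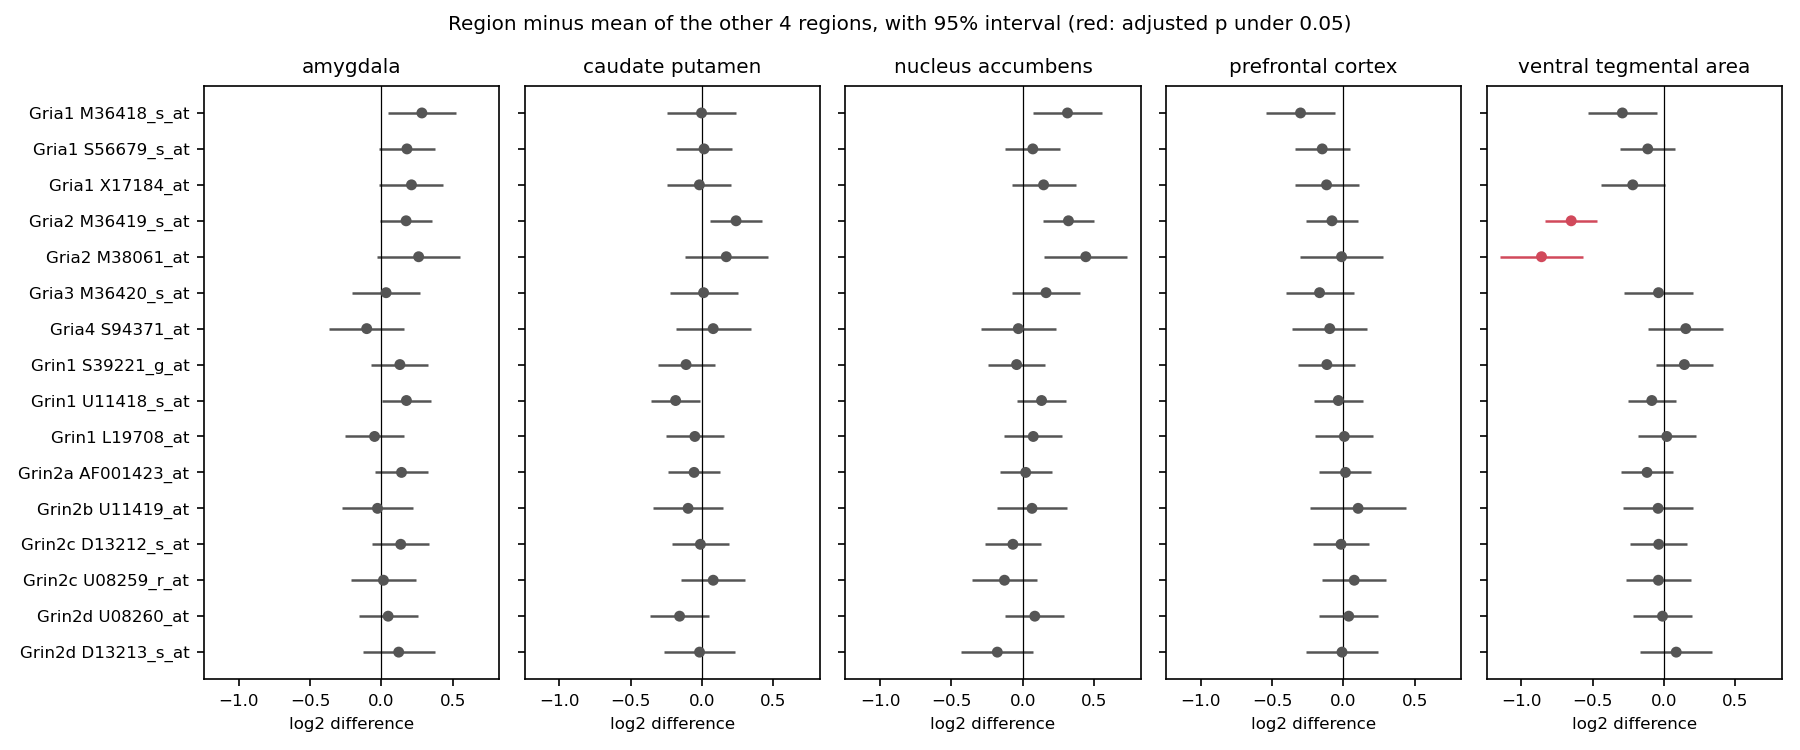
Log2 difference (x axis) between a region and the mean of the other 4 for the 16 tested member probe sets, with its 95% interval, 1 panel per region; red marks an adjusted p under 0.05. The 2 Gria2 probe sets in the ventral tegmental area, at -0.65 and -0.86, are the red points.

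The subunit mix was followed as the log2 ratio of the index of a gene to that of another on the same array, read only across arrays, each gene represented by its brightest tested probe set. All 4 ratios with Gria2 in the denominator were highest in the ventral tegmental area. Gria1 over Gria2 stood at -0.16 and -0.21 there, and between -0.78 and -0.30 on the other 8 arrays. Gria3 over Gria2 stood at 0.09 and 0.33 against -0.57 to -0.25, and Gria4 over Gria2 at -1.04 and -1.01 against -2.04 to -1.67. In each case the ventral tegmental arrays lay above all others. On these probe sets the indices of Gria1, Gria3 and Gria4 were thus higher relative to that of Gria2 there than on any forebrain array. The dimmer Gria3 probe set, X54656_at, was instead lowest in the ventral tegmental area, at 631 and 598, both under the floor. The Gria3 ratio therefore rests on M36420_s_at alone.

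Grin1 over Gria2 stood at -0.04 and 0.22 in the ventral tegmental area and between -0.88 and -0.43 elsewhere. It sets a single Grin1 probe set against a single Gria2 probe set and does not measure NMDA against AMPA receptor transcripts as a whole. On its own that Grin1 probe set, S39221_g_at, had a ventral tegmental log2 difference of 0.14 ± 0.09 (SE, limma adjusted p = 0.4575). The ratios were thus 0.36 log2 units higher there than the mean of the other arrays for Gria1, 0.61 for Gria3, 0.80 for Gria4 and 0.79 for Grin1. For each, an exact two-sided permutation test of the 2 arrays against the other 8 gave p = 0.0222, the smallest that this design allows. Adjusted over the 35 pairs of ratio and region tested, it was 0.194. With so few arrays an adjusted p under the threshold was practically out of reach, the more so for the 3 prefrontal ratios over Grin2b, which rest on 1 array, so this adjusted p says nothing for or against a difference. These 4 pairs were the ones whose arrays lay outside the range of the others, and they share the same Gria2 values. The test was added after the values were seen, and both ventral tegmental arrays were already the lowest on that Gria2 probe set. The 4 p-values are therefore not separate evidence on the subunit mix beyond the lower Gria2 values.

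Within the NMDA receptor the mix differed less between regions. The log2 ratio of Grin2a to Grin2b lay between 0.92 and 1.05 on 8 of the 9 arrays with a Grin2b value, all but the amygdala saline array. The ratio of Grin2c to Grin2b ran between 0.98 and 1.32 on all 9, and that of Grin2d to Grin2b between -0.17 and 0.35. The highest value of each came from the amygdala saline array, where Grin2b was lowest. The amygdala cocaine array had 1.02, 1.17 and -0.17, so for the Grin2d ratio the arrays of this region alone marked out the whole range. No region stood outside the others in these ratios.

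**Figure D3:**
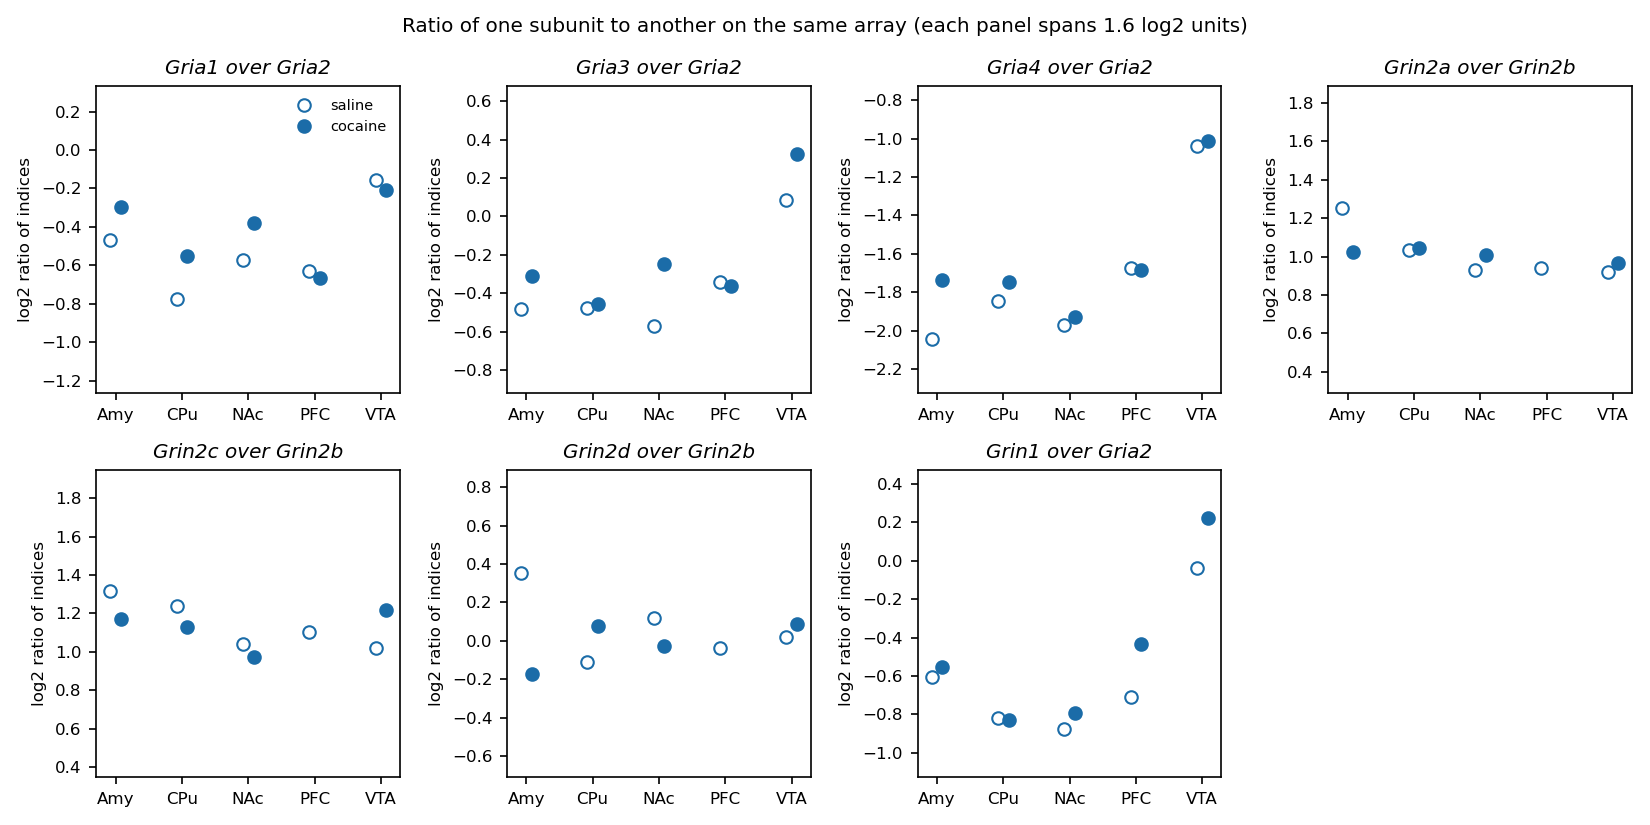
Log2 ratio of the indices of 2 subunit genes on the same array (y axis, every panel spanning the same number of log2 units) by region, saline open and cocaine filled. The ratios over Gria2 are highest on both arrays of the ventral tegmental area, for example -1.04 and -1.01 for Gria4 over Gria2, while the ratios over Grin2b overlap between regions and have no prefrontal cocaine value.

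Cocaine and saline arrays were compared across the 5 regions to ask for a shared response. No member was called in limma, and no probe set of 5244 was, a background of 0%. At an unadjusted p under 0.05 stood 0 of 16 members and 69 of all probe sets. Gria2 came nearest and was lower with cocaine in 4 of 5 regions on both probe sets, with log2 changes of -0.12 ± 0.06 and -0.21 ± 0.10 (SE). Their unadjusted limma p was 0.0990 and 0.0734, and their 95% intervals ran from -0.26 to 0.03 and from -0.44 to 0.02. The amygdala was the exception, at 6959 with saline and 7028 with cocaine on the first and 5041 and 5305 on the second. This fit takes the ratios of the 5 regions as its replicates, each a cocaine array against a saline array. Its p-values and intervals thus measure the spread of the ratio between regions, not between animals. The labels do not say whether the regions come from the same rats.

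The other 14 tested members had log2 changes between -0.02 and 0.07 across the regions. For Grin1 the changes were 0.02 ± 0.07, 0.06 ± 0.06 and 0.07 ± 0.07 (SE) on its 3 tested probe sets, and for Grin2a 0.05 ± 0.06. For Grin2b the change was 0.07 ± 0.09, over 4 regions because of the value listed at 0. No member moved in the same direction in all 5 regions. The median change of the members was 0.01 and that of all tested probe sets -0.01.

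A region offers a single array per treatment, so the ratios have no replicate check and no test. None of the members reached a fold of 1.5 in any region. The background of that fold over all probe sets was 8.89% for the amygdala, 0.153% for the caudate putamen, 0.229% for the accumbens, 4.92% for the prefrontal cortex and 1.65% for the ventral tegmental area. The share of probe sets past the fold thus differed widely between regions, with the striatal pairs the most alike.

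Among the tested members the largest ratios were those of Gria2 on M38061_at in the ventral tegmental area and the prefrontal cortex. The former read 3317 with saline and 2329 with cocaine, a log2 ratio of -0.51 or 1.42-fold lower. The latter read 5216 and 3785, a log2 ratio of -0.46. The other Gria2 probe set had smaller ratios of the same sign, -0.22 and -0.13. The prefrontal cocaine array was the one with 226 exact zeros, and the ventral tegmental cocaine array had the next most, 120. The ventral tegmental pair differed in cell type markers too. With saline and cocaine Sst read 9413 and 3638, Gad1 8527 and 4065, Pvalb 2298 and 5166 and Gad2 3106 and 4906. Of the genes listed as markers of excitatory neurons of cortex and amygdala, Cck read 4161 and 8504 and Nrn1 3489 and 5196. Nrgn, at 7392 and 6768, and Olfm1, at 4454 and 4170, went the other way. Dopamine neuron markers were higher with cocaine, Th at 6363 and 7544, Ddc at 3809 and 5296 and Aldh1a1 at 4477 and 6519. Hcrt, a neuropeptide gene of the lateral hypothalamus, read 23627 and 6808. The part of these markers in the Gria2 ratio was not tested. In the caudate putamen M36419_s_at had -0.20 and M38061_at -0.01, and in the accumbens they had -0.06 and -0.12. Of the members under the limit for testing, Gria3 on X54656_at had -0.52 in the prefrontal cortex, and Grin2a on D13211_s_at had -0.47 in the amygdala and 0.38 in the ventral tegmental area.

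In the amygdala 13 of 16 member probe sets were higher with cocaine, from -0.22 for Grin2d on U08260_at to 0.32 for Gria4 on S94371_at. In this and the other regions the 16 belong to 9 genes and are read on a single pair of arrays, so they are not replicates. Gria4 read 1690 and 2111 there, and Grin2b at 3039 and 3760, a log2 ratio of 0.31. The members' median log2 ratio was 0.08, against -0.04 for all probe sets. Both Gria4 probe sets under the limit for testing went the other way, at 2229 and 1657 and at 1392 and 813, so the Gria4 probe sets differed in sign.

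In the nucleus accumbens 12 of 16 member probe sets were higher, with a median of 0.12 against -0.03 for all probe sets. The highest were Gria3, at 5220 and 6259, and the Gria1 probe set X17184_at, at 2508 and 2985. In the caudate putamen 12 of 16 were lower, from -0.21 for Grin1 on S39221_g_at (4401 and 3815) to 0.15 for Grin2d on U08260_at (3049 and 3377). The members' median there was -0.06, against -0.03 for all.

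Of 15 members with prefrontal values 7 were higher and 8 lower, and of the 16 in the ventral tegmental area 6 and 10. The highest ratio in both was that of Grin2d on D13213_s_at, at 2235 and 2570 in the former and 2298 and 2778 in the latter. The other Grin2d probe set had 3524 and 3438 in the ventral tegmental area, so the Grin2d probe sets differed in sign there. Gria1 there had a log2 ratio of -0.27 on M36418_s_at, from 4278 and 3550, but 0.02 on S56679_s_at, from 3643 and 3697.

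**Figure D4:**
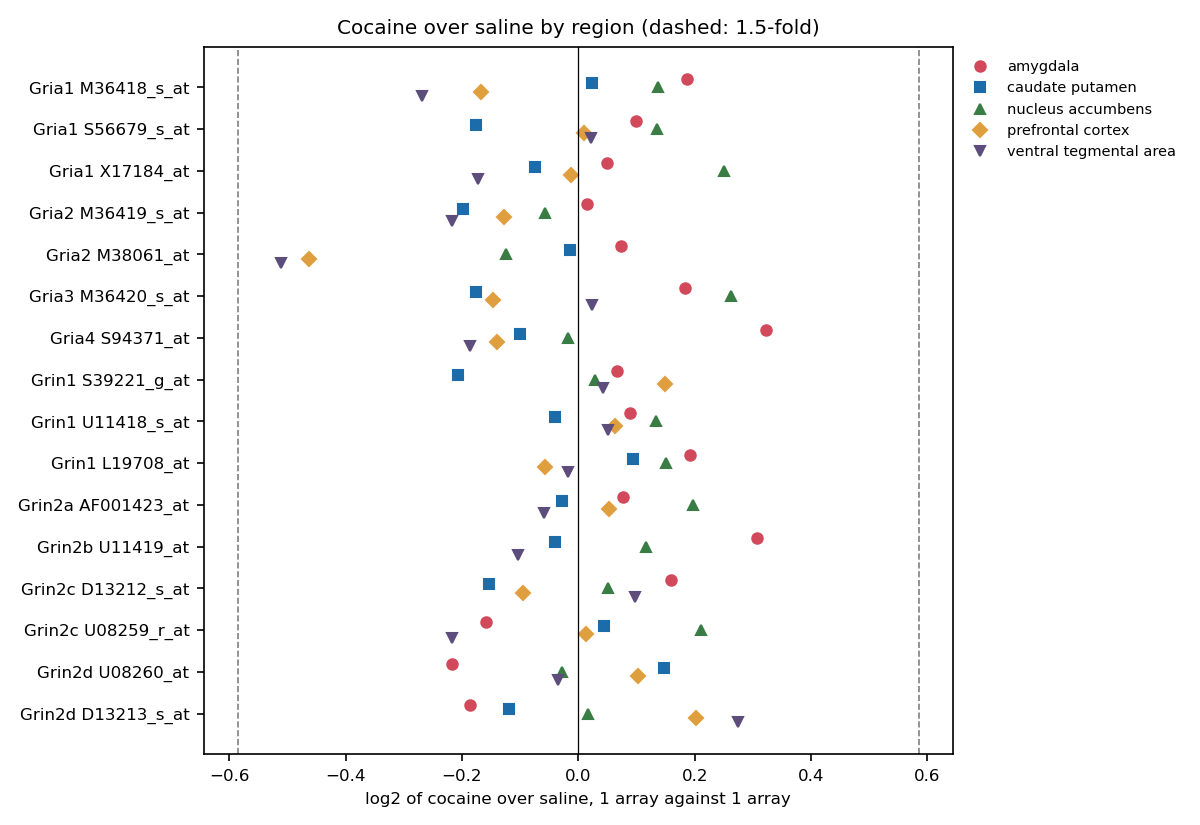
Log2 of cocaine over saline (x axis) in each region for the 16 tested member probe sets, 1 array against 1 array, with dashed lines at 1.5-fold. No point reaches the lines; the farthest are Gria2 on M38061_at in the ventral tegmental area and the prefrontal cortex, at -0.51 and -0.46.

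Genes that work with these receptors were followed through a list of 64, of which 43 had a probe set with a value on every array and 32 were tested. Of these 4 were lower and none higher for the ventral tegmental area, where 3.23% of all probe sets were lower and 11.1% were called in either direction. The total share called was thus near that of all probe sets, while the share called lower was above it. This difference was not tested. These were Homer1, a scaffold that links glutamate receptors to internal calcium stores (2.48-fold, limma adjusted p = 0.000739), Cnih2, an AMPA receptor auxiliary subunit (1.58-fold, adjusted p = 0.00150), Dlgap3, a scaffold of the postsynaptic density (2.15-fold, adjusted p = 0.00197), and Camk2b, a subunit of calcium/calmodulin kinase II (1.45-fold, adjusted p = 0.00780). Cnih2 stood at 7244 and 6924 in the ventral tegmental area and at 9450 or more elsewhere, so it was lowest in the same region as Gria2.

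By group, the ventral tegmental calls were 3 of 14 scaffold and signalling genes and 1 of 6 auxiliary and trafficking genes. They were 0 of 6 other ionotropic receptor genes, with the receptor-associated Grina counted among these, and 0 of 6 transport and synthesis genes. All of these calls were lower, beside 3.23% of all probe sets called lower and 11.1% called in either direction. The calls per group are few, and no test compared their shares with either background. In the caudate putamen Homer1 (1.78-fold) and the actin crosslinker Actn2 (1.38-fold) were higher and the scaffold gene Dlgap1 (a log2 difference of -0.43) lower, with limma adjusted p of 0.0110, 0.0282 and 0.0271, where 4.09% of all probe sets were called. Dlgap1 was 1.30-fold higher in the prefrontal cortex (limma adjusted p = 0.0438), where 5.01% were. None of the 32 passed in the amygdala or the nucleus accumbens, or with cocaine across the regions. The medians of the 32 were -0.07 in the ventral tegmental area and -0.01 with cocaine, against 0.02 and -0.01 for all tested probe sets.

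Within regions, 5 partner ratios reached a fold of 1.5 with cocaine. They were 2 of 32 for the amygdala, 2 for the prefrontal cortex and 1 for the ventral tegmental area, beside 8.89%, 4.92% and 1.65% of all probe sets, so the share for the amygdala was below that of all probe sets. The scaffold gene Dlgap4 read 3485 and 1875 in the amygdala, 2037 and 3425 in the prefrontal cortex and 1600 and 2491 in the ventral tegmental area, saline first. Homer1 stood at 4511 and 2925 in the amygdala, and Grina, which encodes an NMDA receptor-associated protein, at 11721 and 7441 in the prefrontal cortex. Dlgap4 thus had opposite signs in different regions, and Grina, at 10082 and 14351, was higher with cocaine in the amygdala. The signs were not particular to Dlgap4. In the amygdala, prefrontal cortex and ventral tegmental area Gad2 had log2 ratios of -0.89, 0.69 and 0.66, while Grina had 0.51, -0.66 and -0.25. Dlgap4 and Gad2 were higher on the amygdala saline, prefrontal cocaine and ventral tegmental cocaine arrays. These had the most exact zeros, 91, 226 and 120. Whether such ratios belong to the genes or to the arrays was not tested. Among the 3 highest and 3 lowest ratios of each region, the next in size were Nsf, a fusion factor that binds GluA2, at 2259 and 1600 and Dlgap3 at 3934 and 2811 in the prefrontal cortex, Homer3 at 2472 and 1720 in the amygdala, and the kainate receptor subunit gene Grik5 at 6853 and 5229 in the ventral tegmental area. The remaining extremes of the amygdala, prefrontal cortex and ventral tegmental area lay between -0.25 and 0.36 on the log2 scale, for Nsf and Dlgap3, for Dlg3 and Nptx2, and for Dlg2, Shank1, Grina and Camk2b. In the caudate putamen the extremes were Dlgap4, Nptx1 and Slc1a1 upward and Grina, Dlg4 and Dao downward, between -0.28 and 0.25. In the nucleus accumbens they were Dlgap3, Fyn and Grid1 upward and Nsf, Dlgap4 and Dlg2 downward, between -0.33 and 0.21.

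Markers of cell types differed for the ventral tegmental area too, where 3.23% of all probe sets were called lower and 11.1% in either direction. Of 9 striatal projection neuron markers tested 7 were lower there, with a summed index over the list of 31414 to 32297 against 24660 to 123204 elsewhere. Of 4 tested genes listed as markers of excitatory neurons of cortex and amygdala, 3 (Nrgn, Olfm1 and Cck) were called lower and Nrn1 was not. The sums over this list lay between 23017 and 28385 against 41751 to 103724. Slc17a7 and Camk2a, on the same list, were under the limit for testing. In the ventral tegmental area Slc17a7 read 1362 and 1527 against 1218 to 1690 elsewhere, and Camk2a 1406 and 1582 against 1468 to 2220. Of 6 oligodendrocyte markers 4 were higher, with sums of 116078 to 130731 against 75974 to 133966, and of 4 dopamine neuron markers 2 (Th and Aldh1a1) were, with sums of 20421 to 27209 against 12236 to 15066. Of 6 GABA interneuron markers 1 (Calb2) was higher and 1 (Npy) lower, with sums of 34338 to 39454 against 30941 to 46025. Hcrt, a neuropeptide of the lateral hypothalamus, read 23627 and 6808 in the ventral tegmental area and no more than 3620 elsewhere. The part of these cell types in the Gria2 difference was not tested. Of 8 pan-neuronal markers tested 2 (Gap43 and Uchl1) were higher and none was called lower, with sums of 105823 to 111185 against 71464 to 116905 elsewhere. Each list was summed over probe sets that had no zero on any array. Snap25, Tac1 and the dopamine markers Slc6a3 and Nr4a2 also had a probe set with a zero.

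Across the 10 arrays, the genes most like Gria2 among 4037 other probe sets were Fkbp1a, an FK506-binding protein (r = 0.978), Abi2, a regulator of actin (r = 0.967), and Pde2a, a phosphodiesterase of cyclic nucleotides (r = 0.964). The ventral tegmental area was lower for each as well, with log2 differences of -0.98 for Fkbp1a, -0.62 for Abi2 and -1.76 for Pde2a. As these genes were chosen for tracking Gria2 on the same arrays, a lower level there was largely built into the choice. Those most like Gria1 were Nr2f6, Dgkg and Cpsf7 (r of 0.892 to 0.917), like Gria3 Gnb4, Acp5 and Uncx (0.848 to 0.932), and like Gria4 Arf6, Copb1 and Plcl1 (0.931 to 0.952). For Grin1 they were Hadha, RragB and Csnk1d (0.882 to 0.891), for Grin2a Hsd17b1 and 2 probe sets of Prkce (0.839 to 0.870), and for Grin2b, over 9 arrays, Tyro3, Cd72 and Aif1 (0.926 to 0.957). For Grin2c they were Cpq, Ssrp1 and Dbn1 (0.845 to 0.930) and for Grin2d Kif1c, Slc19a1 and Cacna1g (0.882 to 0.895). These correlations are descriptions: the arrays share regions, and the highest of 4037 values is large by selection.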

How the data were processed

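The authors deposited linear intensities, 1 expression index per probe set and array, which they obtained with dChip, per the labels. Which version, model and array scaling they used is not given in the sources used here. Of 8799 probe sets, 59 controls were left out. Gene names came from the platform annotation, which gave 7006 probe sets 1 symbol, 308 several and 1426 none. All 9 member symbols stood in the current rat gene table.

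Exact zeros were taken as no value. Positive values below their 20th percentile (1028) were set to that floor, and log2 was taken. Testing with limma 3.58.1 (R 4.3.3) covered the 5244 probe sets that made up the brightest 60% by mean, with the variance trended on intensity and Benjamini-Hochberg adjustment at 0.05. The region fit had treatment as a term, and the cocaine fit had region as a block, pairing the arrays that the labels give the same region. Each had 4 residual degrees of freedom. Contrasts were fitted directly, so that standard errors are exact where a value is missing. The fits were tested on simulated data. Precision is limited by the number of arrays.

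All member probe sets are described. Of the partners, those past the threshold and, within regions, the 3 highest and 3 lowest ratios are named, and for each member gene the 3 most correlated probe sets. The members, lists and alternatives were chosen with earlier results of these data known. The design gave the subunit ratios no test and required a value on all 10 arrays. The permutation test, and the use of Grin2b over 9 arrays, were added after the values were seen. Alternatives were other treatments of zeros, floor, scaling, filter and trend, and leaving out arrays.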

Additional observations from a re-analysis of the deposited data

Results flagged for a closer look

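Each tested member was examined for an array apart from the rest among the 5 arrays of a treatment, by the gap to its neighbour relative to the range. Of 32 such series 1 passed the 95% critical value, where chance gives about 1 in 20. It was Grin2c on U08259_r_at, whose saline array of the nucleus accumbens stood at 2850 while the other 4 saline arrays stood between 3387 and 3507. The cocaine array of the same region stood at 3300, and the other Grin2c probe set, D13212_s_at, had 7028 there, just under the 7038 to 7786 of the other saline arrays, so this array was the lowest saline array on both.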

How the results depend on the processing

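The 2 Gria2 calls in the ventral tegmental area each held under 17 of 18 alternatives, with log2 differences from -0.71 to -0.55 and from -1.05 to -0.67 and limma adjusted p up to 0.0573 and 0.111. The exception for both was leaving out the cocaine array of that region. Leaving out single arrays moved the number of members called there between 0 and 3, in the prefrontal cortex between 0 and 1, and in the F test among regions between 0 and 3. The F test called 1 member with zeros raised to the floor and 1 with all probe sets tested. The cause was not tested. Counts of 0 in the other regions and with cocaine stayed at 0 under all alternatives run, which for cocaine included no region block (no replicate block) and leaving out each region. With the lower fold threshold tried in place of 1.5, 2 member ratios within regions passed, and with zeros raised to the floor 1 did, Grin2b in the prefrontal cortex by construction. Between 3 and 5 of the 35 subunit ratios lay outside the range of the other arrays under the alternatives, against 4. Most members' differences are small beside the width of their intervals, which 2 arrays per region set.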
